A study of Mus musculus with 6 samples.

Results

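The genes described here are 10 members of the fibroblast growth factor (FGF) system, the ligand genes Fgf1, Fgf2, Fgf5, Fgf7, Fgf10 and Fgf18 and the receptor genes Fgfr1, Fgfr2, Fgfr3 and Fgfrl1. They were taken by symbol from the 53762 gene symbols of the count files, and all 10 were found. RNA was sequenced from immortalized embryonic fibroblasts of the mouse (MEF cells), which are mesenchymal cells taken from embryos, kept here in high-glucose DMEM with 10% fetal bovine serum and antibiotics, 24 hours after seeding. The 3 libraries of the WT group came from wild-type MEF cells and the 3 of the KO group from PME-1 knockout MEF cells, in which the gene Ppme1 was targeted. Its product is PME-1, a demethylase that acts on the phosphatase PP2A. The genotype cells of KO 2 and KO 3 carry other numbers after PME, so the groups follow the sample titles. The labels do not say how the knockout or the immortalization was made, how many clones were used, or whether replicates came from separate cultures. The p-values therefore measure only the spread between these libraries, which may be technical.

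FGFs are secreted proteins that bind receptor tyrosine kinases together with heparan sulfate, and the bound receptors signal through the adaptor FRS2 and the RAS to ERK cascade. Sprouty proteins and dual-specificity phosphatases feed back on that cascade. In the embryo FGF7 and FGF10 are made mainly by mesenchyme and act on a splice form of FGFR2 found in epithelia, while FGF2 acts mainly on the receptor forms found in mesenchyme. FGFR1 is the main FGF receptor of fibroblasts. FGFRL1 binds FGFs but has no kinase domain.

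Values are CPM, the usual read counts per 1 M reads, here of each library's effective size, given as mean ± SD with n = 3 per group. Total counts were 34450993 to 44116310 per library, so that 3 counts correspond to 0.0689 to 0.0881 CPM. Ppme1 was at 78.5, 80.7 and 86.6 CPM in WT and at 18.2, 14.9 and 18.9 CPM in KO. The 4.72-fold fall (edgeR adjusted p = 0.000563) left transcripts in every KO library. WT 1 and KO 1 stood apart from the other libraries of their groups. The SD of the log2 CPM differences between libraries was 0.586 for WT 2 and WT 3 and 0.619 for KO 2 and KO 3, but 0.86 to 0.889 for the pairs of WT 1 or KO 1 with the others of their group. The deviations from the group means crossed genotype: those of WT 1 correlated with those of KO 2 and KO 3 (r = 0.603 and 0.602 across 10762 genes) and those of KO 1 with those of WT 2 and WT 3 (r = 0.623 and 0.633). A fit without WT 1 and KO 1 therefore sets this shared difference fully against genotype, and the 2 cannot be told apart in it. Xist ranged over 370 to 490 CPM in WT and 0.117 to 0.31 CPM in KO. The Y-linked Ddx3y had 0 counts in WT and 58.4 to 71.8 CPM in KO, and the sex markers of the cells and the genotype cannot be told apart. Fibroblast markers summed to 16000 to 22000 CPM in WT and 12900 to 15200 CPM in KO. Of their 11 tested genes 3 fell, 0 rose and 8 did not pass. By sign 7 were lower and 4 higher in KO. Among the higher ones were Thy1 (2.82-fold, adjusted p = 0.134) and Dcn (4.6-fold, adjusted p = 0.225), neither called. The part of this lower sum in the results below was not tested. In bulk RNA fewer cells of a type and less RNA per cell cannot be told apart. Of the markers of other lineages, 5 of 8 immune and 4 of 9 endothelial genes had 0 counts everywhere, Ptprc had 7 counts in all and Pecam1 12. Others were detected at low levels. Erg averaged 3.05 CPM in WT and 3.28 CPM in KO, Kdr 0.985 and 1.14 CPM, and Cd68 1.62 and 2.57 CPM. None of these was called (adjusted p = 0.93, 0.869 and 0.619). Of the tested endothelial markers Tek rose 7.98-fold, to a KO mean of 1.54 CPM (adjusted p = 0.0241). Neural and glial markers summed to 135 to 249 CPM in WT and 212 to 474 CPM in KO, mostly Nes, with Sox2 called 6.95-fold higher (adjusted p = 0.00134) and Map2 called 1.73-fold lower (adjusted p = 0.0209). Their part in the results was not tested.

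In KO cells the transcripts of 2 kinase receptors, Fgfr1 and Fgfr2, and of the ligand Fgf10 fell. Of the 10 members 9 had at least 1 count and 7 had enough counts to be tested. Lower levels were called for 3 of these 7, where 3.86% of the 15223 genes tested were called lower and 7.4% were called in either direction. No member was called higher by edgeR, where 3.55% of all genes were. At an unadjusted p under 0.05 edgeR had 5 members lower and 0 higher, where 3378 of the 15223 genes passed in either direction. DESeq2 called 4 lower and 0 higher at the adjusted threshold, against 7.97% and 7.86% of all genes. The groups did not overlap in 5 of the 7 tested members, with KO lower in each, and 15.4% of tested genes were separated in that direction. The plot of levels by library shows the 9 detected members.

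**Figure D1:**
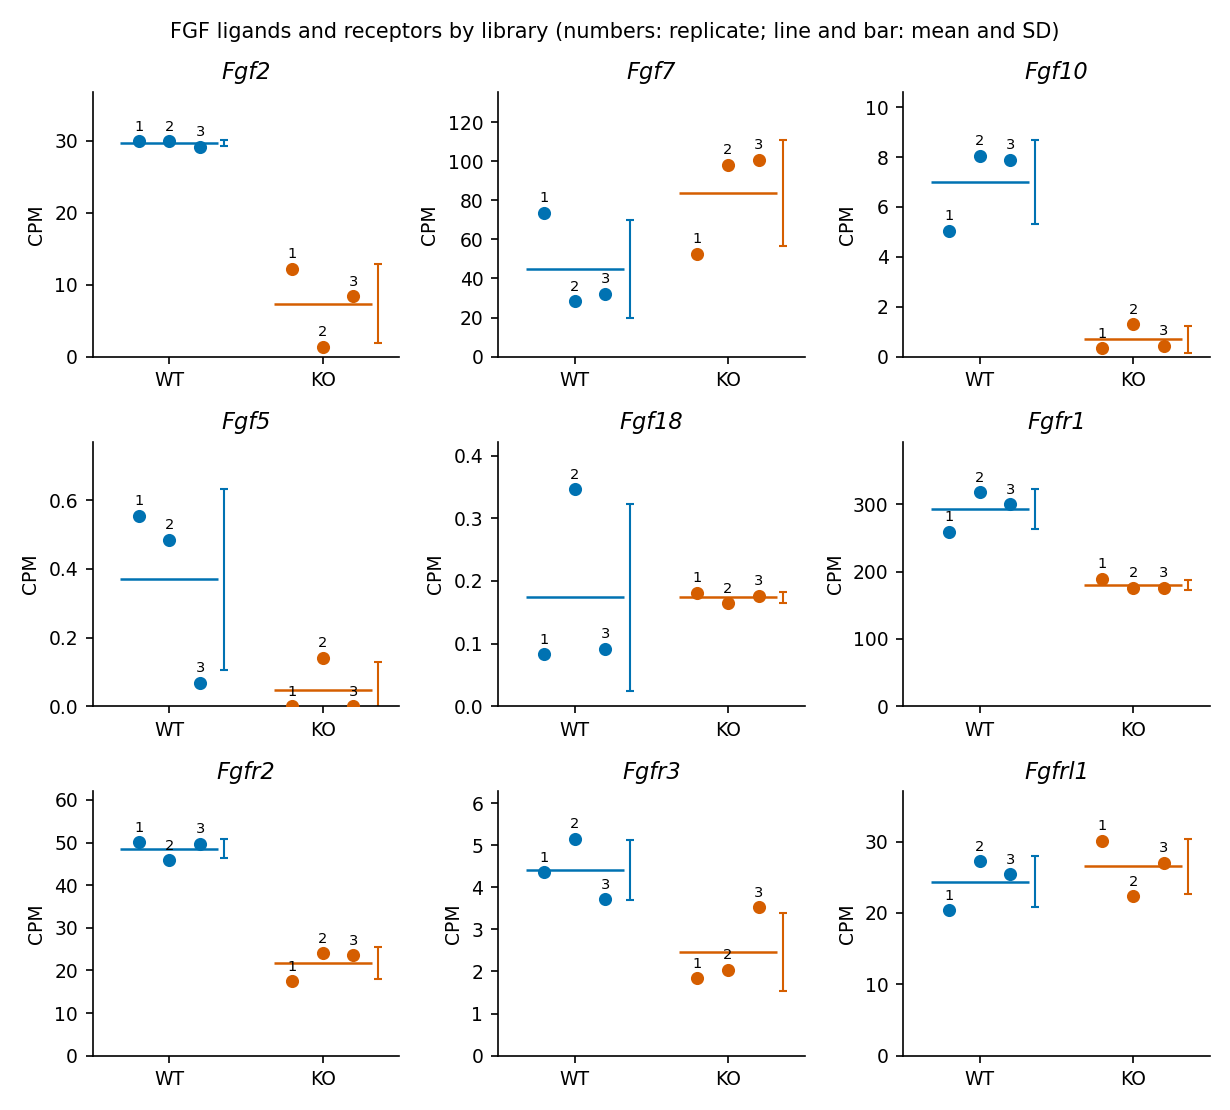
CPM of the 9 detected FGF genes in each library, WT in blue and KO in orange, with replicate numbers beside the points, each panel on its own linear axis from 0. Horizontal lines are group means and the bars beside them are SDs (n = 3). Fgfr1, Fgfr2, Fgfr3, Fgf2 and Fgf10 are lower in each KO library than in each WT library, Fgf7 and Fgfrl1 overlap between the groups, and Fgf5 and Fgf18 stay under 0.6 CPM.

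Fgfr1 had the highest level of the FGF receptors in these cells. Its gene spans 25513654 to 25575718 of chromosome 8, plus strand (ENSMUSG00000031565.18, GENCODE M21 on GRCm38, as for all positions here). Its level was 259, 317 and 300.3 CPM in WT libraries 1 to 3 and 189, 176 and 176 CPM in KO libraries 1 to 3. The KO values lay close together and all of them below the lowest WT value, that of WT 1. The group levels were 292 ± 29.9 and 180.3 ± 7.64 CPM, a 1.62-fold fall (log2 fold change -0.70, SE 0.12, adjusted p = 0.0169). The counting error was small beside the spread between libraries, since the ratio of summed counts, WT over KO, was 1.63 with a 95% counting interval from 1.60 to 1.66. Without WT 2, WT 3, KO 2 or KO 3 in turn the fall was of similar size but not called, with adjusted p between 0.0858 and 0.0958.

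Fgfr2 fell as well. WT libraries held 1807, 1988 and 2166 of its counts and KO libraries 675, 1025 and 805, or 50.1, 45.9 and 49.7 CPM against 17.5, 24.0 and 23.6 CPM. The WT libraries differed little among themselves, and the highest KO library, KO 2, was far below the lowest WT library. The level went from 48.6 ± 2.31 to 21.7 ± 3.69 CPM, a 2.24-fold fall (log2 fold change -1.16, SE 0.15, adjusted p = 0.00753). The call was kept in each fit with 1 library left out, with log2 fold changes from -1.23 to -1.03. Without WT 3 it was kept only narrowly (adjusted p = 0.0498). Without WT 1 and KO 1 together the log2 fold change was -1.01 (adjusted p = 3.71e-06), in a fit that called 24.6% of genes lower.

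Gene counts do not separate the epithelial and mesenchymal splice forms of Fgfr2. Of the epithelial markers, Epcam averaged 0.641 CPM in the WT libraries and 0.675 CPM in those of KO, and Krt5, Krt14 and Esrp1, a splicing factor that sets the epithelial form, had 0 counts everywhere. The summed level of the 14 listed epithelial markers was 9.85 to 34.2 CPM in WT and 132 to 151 CPM in KO. Krt18 at 75.5 CPM and Krt19 at 53.3 CPM held most of the KO sum. Of the 9 tested epithelial markers 2 rose, Krt18 54.4-fold (adjusted p = 0.000753) and Krt8 14.9-fold (adjusted p = 0.0109), and 7 did not pass. Esrp2, a relative of Esrp1, had mean levels of 0.974 and 3.91 CPM in the groups and was not called (adjusted p = 0.0527). What part these transcripts have in the Fgfr2 level was not tested. The Fgfr2 model lies on the minus strand of chromosome 7 from 130162451 to 133123350 (ENSMUSG00000030849.18) and holds long transcripts that share 314 exon bases with Ctbp2 on the same strand. Ctbp2 had 2003 to 3071 counts per library, and how the counting divided reads in these shared bases is not known.

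Fgfr3, the receptor best known for restraining growth of cartilage, was a minor transcript. Its level was 4.36, 5.15 and 3.72 CPM in WT and 1.84, 2.04 and 3.52 CPM in KO. The groups did not overlap, but KO 3 came close to WT 3. The difference was not called (4.41 ± 0.718 against 2.47 ± 0.921 CPM, log2 fold change -0.84, SE 0.34, adjusted p = 0.204). It was not called in any alternative fit either, with adjusted p from 0.106 to 0.508. Fgfr3 lies on chromosome 5 from 33721674 to 33737068 on the plus strand (ENSMUSG00000054252.18), its processed pseudogene Fgfr3-ps had 0 counts in every library, and the antisense model G630022F23Rik, which shares 998 exon bases with it, had at most 6. Fgfr4, the remaining kinase receptor of the family, had 0 counts in the WT libraries and 7, 0 and 6 in KO libraries 1 to 3.

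Fgfrl1, the receptor without a kinase, showed no such difference. It lies on the same chromosome from 108692382 to 108706924 (ENSMUSG00000008090.14) and was at 20.4, 27.3 and 25.4 CPM in WT and 30.1, 22.4 and 27.0 CPM in KO. The ranges overlapped, with KO 1 the highest library and WT 1 the lowest. The means were 24.4 ± 3.58 and 26.5 ± 3.89 CPM (log2 fold change 0.12, SE 0.17, adjusted p = 0.741), and the sign of this small difference turned without WT 1 and KO 1 (-0.10, adjusted p = 0.548). The miss of the threshold does not show that the levels were equal.

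The make-up of the receptor transcripts differed between the groups. Levels of different genes are compared per kilobase (kb) of merged exons. The summed level of the 3 kinase receptors was 31.7, 37.3 and 35.7 CPM per kb in WT and 21.1, 20.5 and 20.6 CPM per kb in KO. The share of Fgfrl1 in the summed level of the 4 receptors was 18.7%, 20.8% and 20.4% in WT. It was 33.9%, 28.2% and 32.1% in KO, so that each KO library held a larger part of the kinase-less receptor than any WT library. The share of Fgfr1 went from 67.7% ± 0.479 to 60.4% ± 1.97 and that of Fgfr2 from 10.9% ± 1.5 to 7.01% ± 1.51. The ratio of Fgfr1 to Fgfrl1 per kb was 3.40 ± 0.167 in WT and 1.94 ± 0.243 in KO. These shares were not tested, since they follow from the levels above, and they move with the length used: with the longest transcript of each gene the share of Fgfrl1 was 13.0% ± 0.798 in WT and 21.6% ± 2.31 in KO.

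**Figure D2:**
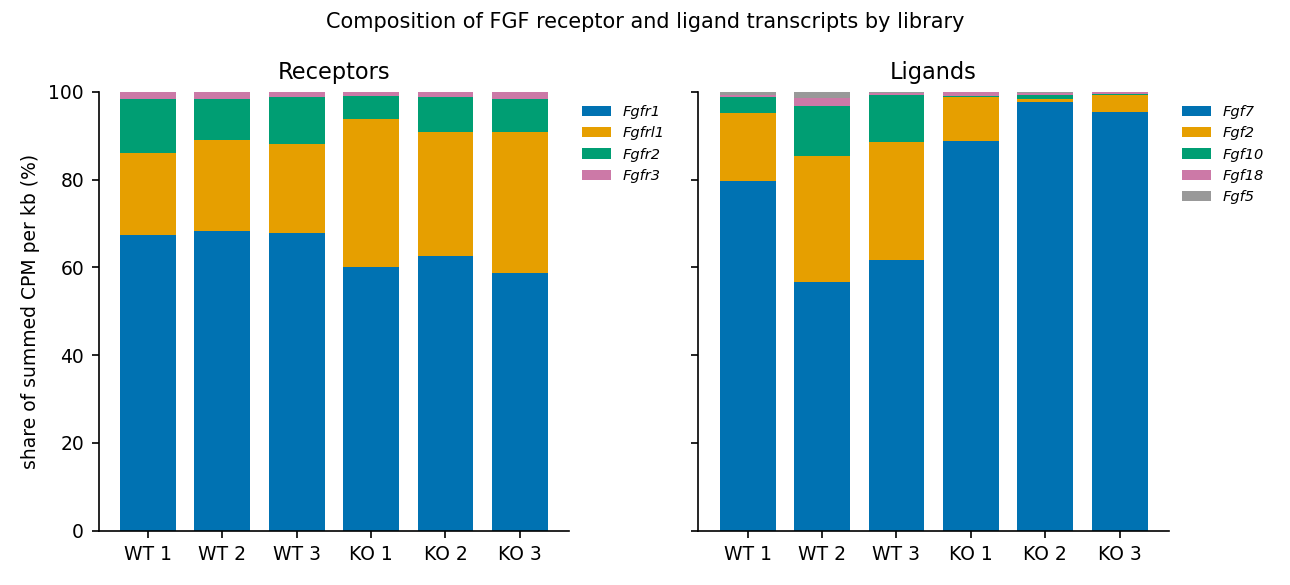
Share (%) of each gene in the summed CPM per kb of the 4 member receptors (left) and of the 5 detected member ligands (right), 1 stacked bar per library. Fgfrl1 holds 18.7% to 20.8% of the receptor level in WT and 28.2% to 33.9% in KO, and Fgf7 holds 56.7% to 79.6% of the ligand level in WT and 88.9% to 97.8% in KO.

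Among the ligands Fgf10, a mesenchymal signal needed for the outgrowth of limbs and lungs, had the largest fall of the 7 tested members. It lies on chromosome 13 from 118669791 to 118792115 on the plus strand (ENSMUSG00000021732.14). WT libraries held 182, 349 and 344 counts and KO libraries 13, 55 and 15, or 5.05, 8.06 and 7.90 CPM against 0.336, 1.29 and 0.441 CPM. WT 1 was the lowest WT library and KO 2 the highest KO library, and the groups stayed far apart. The level went from 7.0 ± 1.69 to 0.689 ± 0.523 CPM, a 10.0-fold fall (log2 fold change -3.33, SE 0.56, adjusted p = 0.0185). The counting interval of the WT over KO ratio of summed counts ran from 7.89 to 12.5. Without KO 2 the log2 fold change was -4.16 (adjusted p = 0.0138). Without WT 2, WT 3 or KO 3 it was -3.22, -3.24 and -3.10 and was not called, with adjusted p of 0.0745, 0.0808 and 0.0824. Without WT 1 and KO 1 together it was -3.17 (adjusted p = 0.000149). The antisense model Gm16263, which shares 123 exon bases with Fgf10, had 0 counts in every library.

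Fgf7, the closest relative of Fgf10 among these ligands and also a ligand of the epithelial form of FGFR2, did not follow it. It lies on chromosome 2 from 126034658 to 126091185 on the plus strand (ENSMUSG00000027208.14). Its level was 73.6, 28.3 and 32.2 CPM in WT and 52.6, 98.2 and 100.8 CPM in KO. WT 1 lay above KO 1, while WT 2 and WT 3 lay below all KO libraries. The means of 44.7 ± 25.1 and 83.9 ± 27.1 CPM were not called different (log2 fold change 0.91, SE 0.42, adjusted p = 0.269). On the log2 scale WT 1 was 1.28 above the mean of WT 2 and WT 3, and KO 1 was -0.92 relative to the mean of KO 2 and KO 3. Without WT 1 the log2 fold change was 1.47 (adjusted p = 0.0417), and without WT 1 and KO 1 it was 1.72 (adjusted p = 1.77e-08). That last setting compares 2 libraries with 2 and called 23.3% of all genes higher.

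The level of Fgf7 relative to Fgf10, per kb, was 20.6, 4.98 and 5.77 in WT and 222, 108 and 324 in KO. Every library held more Fgf7 than Fgf10, and the ratio of each KO library was above that of WT 1, the highest of the WT libraries. The start regions of this pair are printed because their products share a receptor while 1 gene fell and the other did not. Each sequence gives the 250 bases before the RefSeq start (GRCm38.p6, plus strand, 5′ to 3′), Fgf10 at chr13:118714449-118714698 and Fgf7 at chr2:126034408-126034657, with capitals marking matches to the motifs searched. The Fgf7 window ends where its GENCODE model begins (126034658). That of Fgf10 lies inside its GENCODE model, which begins at 118669791, and the start of that model was not examined.
Fgf10: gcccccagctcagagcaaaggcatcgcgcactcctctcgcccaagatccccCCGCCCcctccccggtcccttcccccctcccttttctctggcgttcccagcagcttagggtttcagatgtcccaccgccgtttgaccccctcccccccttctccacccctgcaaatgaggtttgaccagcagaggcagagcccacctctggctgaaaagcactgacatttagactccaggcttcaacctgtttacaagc
Fgf7: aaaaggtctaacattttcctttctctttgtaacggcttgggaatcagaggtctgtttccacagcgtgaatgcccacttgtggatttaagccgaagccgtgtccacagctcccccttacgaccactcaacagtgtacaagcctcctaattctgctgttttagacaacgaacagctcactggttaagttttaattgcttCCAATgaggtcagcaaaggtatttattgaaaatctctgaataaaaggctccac

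The Fgf10 window was rich in G and C (61.2%) and the Fgf7 window was poor in them (43.6%), against a median of 52.4% over 32851 RefSeq start regions of the same length. The motifs searched on both strands were the CCAAT box, the GC box as GGGCGG, the site of T-box factors as GGTGTNA, that of AP-1 as TGANTCA, that of ETS factors as GGAAGT, that of LEF/TCF factors as CTTTGAT, and the start box TATAAA. No match overlapped another in these windows. The Fgf10 window held 1 GC box, on the opposite strand and 199 to 194 bases before the start, as do 32.7% of all windows. The Fgf7 window held 1 CCAAT box, 53 to 49 bases before the start, as do 33.8% of all windows. The letters of the other motifs were not in these windows, and nothing follows from that about the factors. A promoter entry was used for 8 of the 10 members.

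Fgf2, a mitogen of fibroblasts that lacks a classical secretion signal, was steady in WT and uneven in KO. Its level was 29.9, 30.0 and 29.2 CPM in WT and 12.2, 1.38 and 8.43 CPM in KO. KO 2 held 59 counts where KO 1 held 473 and KO 3 held 287, and each KO library was below each WT library. The means were 29.7 ± 0.462 and 7.35 ± 5.51 CPM, but the difference was not called (log2 fold change -2.02, SE 0.66, adjusted p = 0.132). It was called by DESeq2 (adjusted p = 0.0118), by edgeR's exact test (adjusted p = 0.0291) and by the quasi-likelihood test once KO 2 was left out (-1.51 on the log2 scale, adjusted p = 0.0345). It was not called in the other 13 alternative fits, with adjusted p up to 0.312. Fgf2 lies on chromosome 3 from 37348346 to 37410108 on the plus strand (ENSMUSG00000037225.13) and shares 640 exon bases with Nudt6 on the opposite strand. The kit keeps strand but the strand setting of the counting is not given, so reads in these bases cannot be assigned with certainty. Nudt6 had 37, 63 and 22 counts in WT and 107, 46 and 14 in KO, few beside the Fgf2 counts except in KO 1 and KO 2.

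The remaining ligands were near or under the floor of 3 counts in several libraries and were not tested. Fgf5, a signal that ends the growth phase of hair, had 20, 21 and 3 counts in WT and 0, 6 and 0 in KO. Over the groups this made 44 against 6 counts, which gives 6.88 for WT over KO (counting interval 2.92 to 19.8), but WT 3 held fewer counts than KO 2. Fgf18, which acts on cartilage and bone, had 3, 15 and 4 counts in WT and 7, 7 and 6 in KO, or 1.03 for WT over KO (0.538 to 1.99). With no filter on low counts neither was called (edgeR adjusted p = 0.43 for Fgf5 and 0.998 for Fgf18). Fgf1 had 0 counts in all 6 libraries, which allows at most 0.0689 to 0.0881 CPM. Fgf5 lies on chromosome 5 from 98254184 to 98277030 (ENSMUSG00000029337.2) and Fgf18 spans 33117430 to 33147400 of chromosome 11, minus strand (ENSMUSG00000057967.12).

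The plot of log2 fold changes sets the 7 tested members side by side. Fgf10, Fgfr2, Fgfr1, Fgf2 and Fgfr3 stayed below 0 in each fit, those without 1 library included, and Fgf7 stayed above 0. The ranges of Fgf7 and Fgf2 with 1 library left out, 0.66 to 1.47 and -2.61 to -1.51, were wide beside that of Fgfr1, -0.77 to -0.64.

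**Figure D3:**
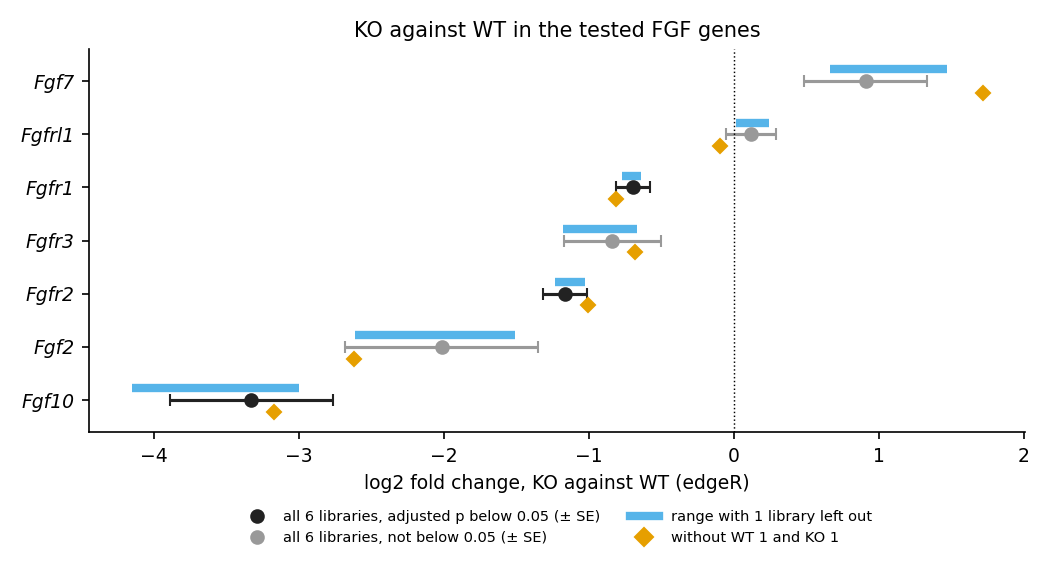
Log2 fold change of KO against WT (x axis) for the 7 tested FGF genes. Circles are the fit of all 6 libraries with its SE, dark where the adjusted p was below 0.05 (Fgf10, Fgfr2 and Fgfr1), blue bars the range with 1 library left out, and diamonds the fit without WT 1 and KO 1, which lies at 1.72 for Fgf7 and at -0.10 for Fgfrl1.

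Per kb of exon, the order of levels in WT was Fgfr1 (29.6 ± 3.02 CPM per kb), Fgf7 (13.8 ± 7.72), Fgfrl1 (8.76 ± 1.29), Fgfr2 (4.70 ± 0.224), Fgf2 (4.38 ± 0.0681), Fgf10 (1.52 ± 0.368), Fgfr3 (0.616 ± 0.100), Fgf5 (0.148 ± 0.105), Fgf18 (0.146 ± 0.126) and Fgf1 at 0. The ranges over libraries overlapped between Fgf7 and Fgfrl1 and between Fgf5 and Fgf18 and between no other neighbours. In KO the order was Fgf7 (25.8 ± 8.34 CPM per kb), Fgfr1 (18.3 ± 0.773), Fgfrl1 (9.53 ± 1.40), Fgfr2 (2.10 ± 0.357), Fgf2 (1.08 ± 0.812), Fgfr3 (0.345 ± 0.129), Fgf10 (0.150 ± 0.114), Fgf18 (0.146 ± 0.00732), Fgf5 (0.0188 ± 0.0325) and Fgf1 at 0. There the ranges of Fgf7 and Fgfr1 overlapped, and so did those of each neighbouring pair from Fgfr2 to Fgf18 and of Fgf5 and Fgf1. With longest transcripts in place of merged exons Fgfr1 stood first in KO too (35.8 ± 1.52 against 31.4 ± 10.1 for Fgf7), so the place of Fgf7 depends on the gene model. In WT these models put Fgfr2 (11 ± 0.522) before Fgfrl1 (10.5 ± 1.54), with overlapping ranges.

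Among the member ligands the summed level was therefore mostly Fgf7 in each library. FGF ligands outside the 10 members were left out of this sum. Of these, Fgf21 averaged 0.338 CPM per kb in WT and 1.72 in KO, with KO 1 at 3.67. The share of Fgf7 in the summed level of the member ligands per kb was 79.6%, 56.7% and 61.8% in WT. In KO it was 88.9%, 97.8% and 95.4%. Fgf2 held 23.7% ± 7.15 in WT and 4.79% ± 4.69 in KO, and Fgf10 held 8.66% ± 4.17 and 0.534% ± 0.327. The summed ligand level itself overlapped between the groups, at 28.5, 15.4 and 16.02 CPM per kb in WT and 18.2, 30.9 and 32.5 CPM per kb in KO.

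Other genes of the pathway were read from lists around the receptors, with the share of all tested genes called lower (3.86%) and higher (3.55%) and the median log2 fold change of all tested genes (0.01) as the comparison. Among 16 other FGF ligands 7 had 0 counts everywhere and 4 were tested. Fgf13, an intracellular FGF that binds sodium channels and lies on the X chromosome, had 0 counts in each WT library and 9, 16 and 24 in KO, at least 5.93-fold higher against a floor of 3 counts per library (edgeR adjusted p = 0.0428), and the call was lost without any of WT 1, WT 2, WT 3, KO 1 and KO 3. Fgf21, a metabolic hormone, had 14, 10 and 15 counts in WT and 135, 31 and 23 in KO and was not called (adjusted p = 0.133). The klotho genes Kl and Klb, whose products are co-receptors of the hormone-like FGFs, had 0 counts everywhere.

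Among the co-receptors and binding proteins 1 of 6 tested genes fell and the other 5 did not pass, with a median log2 fold change of 0.12. The gene that fell was Flrt2, a membrane protein of a family that binds FGF receptors, from 90.8, 67.3 and 72.3 CPM in WT to 21.4, 14.8 and 16.4 CPM in KO (4.38-fold, adjusted p = 0.00214). Flrt1 and Flrt3 of the same family had log2 fold changes of -0.03 and 0.22 (adjusted p = 0.968 and 0.724). Fgfbp1, which releases FGFs from the matrix, had 27, 3 and 7 counts in the WT libraries and 39, 114 and 64 in those of KO (adjusted p = 0.151).

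Heparan sulfate, the sugar chain that joins FGF to its receptor, is carried by syndecans, glypicans and perlecan. Of 10 tested carriers 4 fell and 6 did not pass, and the median log2 fold change was -0.68. Gpc4, which lies on the X chromosome, fell 2.45-fold from 116.9 ± 16.9 to 47.7 ± 1.89 CPM (adjusted p = 0.00282), Gpc6 2.41-fold (adjusted p = 0.0169), Sdc1 1.93-fold (adjusted p = 0.0323) and Sdc3 1.75-fold (adjusted p = 0.0104). The syndecan Sdc4 had the opposite sign, with mean levels of 178 and 293 CPM in the groups (log2 fold change 0.72, adjusted p = 0.088). Of 18 tested enzymes that build or trim the chains 2 fell and 16 did not pass (median -0.23), namely the epimerase Glce, 2.30-fold from 110.6 ± 5.29 to 48.1 ± 3.72 CPM (adjusted p = 0.00183), and the polymerase Ext2, 1.42-fold (adjusted p = 0.0314). Glce lies on chromosome 9 from 62057248 to 62122655, inside the stretch from 55 to 75 Mb in which 56.8% of the genes averaging 5 CPM or more (71 of 125) were called lower. The calls of Gpc6, Sdc1, Sdc3 and Ext2 were lost without WT 2, WT 3, KO 2 or KO 3, with adjusted p up to 0.148. Those of Sdc1 and Ext2 were also lost under upper-quartile scaling (adjusted p = 0.0551 and 0.0562). With library sizes alone their adjusted p was 0.0679 and 0.0703.

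Inside the cell most adaptor and cascade genes did not pass, as was so of all tested genes, of which 7.4% were called in either direction. Of 15 tested adaptors 1 fell and 14 did not pass (median -0.15), the docking protein gene Gab1, 2.05-fold from 28.3 ± 4.87 to 13.8 ± 1.35 CPM (adjusted p = 0.0169). Frs2, the main adaptor of FGF receptors, averaged 128 CPM in the WT and 116 CPM in the KO libraries (adjusted p = 0.688). Of 13 tested genes of the RAS to ERK cascade 1 fell and 12 did not pass (median -0.16), the kinase gene Map2k1, 1.45-fold (adjusted p = 0.0389), which lies in the same stretch of chromosome 9 (64185770 to 64253631). Both calls were lost without WT 2, WT 3, KO 2 or KO 3, with adjusted p up to 0.176. With all 6 libraries that of Map2k1 was also lost under upper-quartile scaling (adjusted p = 0.0798) or library sizes alone (0.104). The same held with no filter (0.0527) or a filter at a mean of 5 CPM (0.0543).

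Of 20 tested genes that respond to FGF and ERK, 1 rose, 1 fell and 18 did not pass, with a median log2 fold change of -0.11. Spry4, a Sprouty feedback inhibitor, was at 5.77, 4.41 and 4.04 CPM in WT and 1.55, 1.88 and 2.12 CPM in KO, a 2.56-fold fall (adjusted p = 0.0332) whose call was lost without any 1 of the 6 libraries (adjusted p from 0.0592 to 0.123). Ier3, an early response gene, was at 28.4, 23.4 and 20.3 CPM in WT and 40.2, 41.5 and 40.7 CPM in KO, a 1.70-fold rise (adjusted p = 0.0277) that was not called without WT 2, WT 3, KO 2 or KO 3 (adjusted p up to 0.122). The feedback genes Dusp6, Dusp4 and Spry2 had log2 fold changes of -1.04, -1.64 and -0.10 and were not called (adjusted p = 0.086, 0.125 and 0.79), and neither were the ETS factor genes Etv4 and Etv5 (-0.93 and -0.18, adjusted p = 0.158 and 0.694). Others of the same families had positive values and were not called either, Spry1 at 0.55, Dusp5 at 0.37 and Etv1 at 1.13 (adjusted p = 0.472, 0.597 and 0.146).

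The limb bud is where FGF10 is best known to act, downstream of T-box factors. In a list of 21 genes of that circuit 17 were tested, of which 3 rose, 7 fell and 7 did not pass (median -0.17). Tbx4, the T-box factor of the hindlimb, rose 11.7-fold (adjusted p = 0.000563) and its regulator Pitx1 rose 3.20-fold (adjusted p = 0.00249), while Shox2 fell 6.69-fold (adjusted p = 0.000753) and Hoxd9 fell 8.62-fold (adjusted p = 0.00213). Tbx5, the T-box factor of the forelimb, was chosen after its values were seen. It was at 18.4, 32 and 33.4 CPM in WT and 0.88, 0.164 and 0.382 CPM in KO (log2 fold change -5.88, adjusted p = 0.00314). Shh had 0 counts everywhere, and the FGF ligand gene Fgf8 had 14 counts, all in KO 2.

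**Figure D4:**
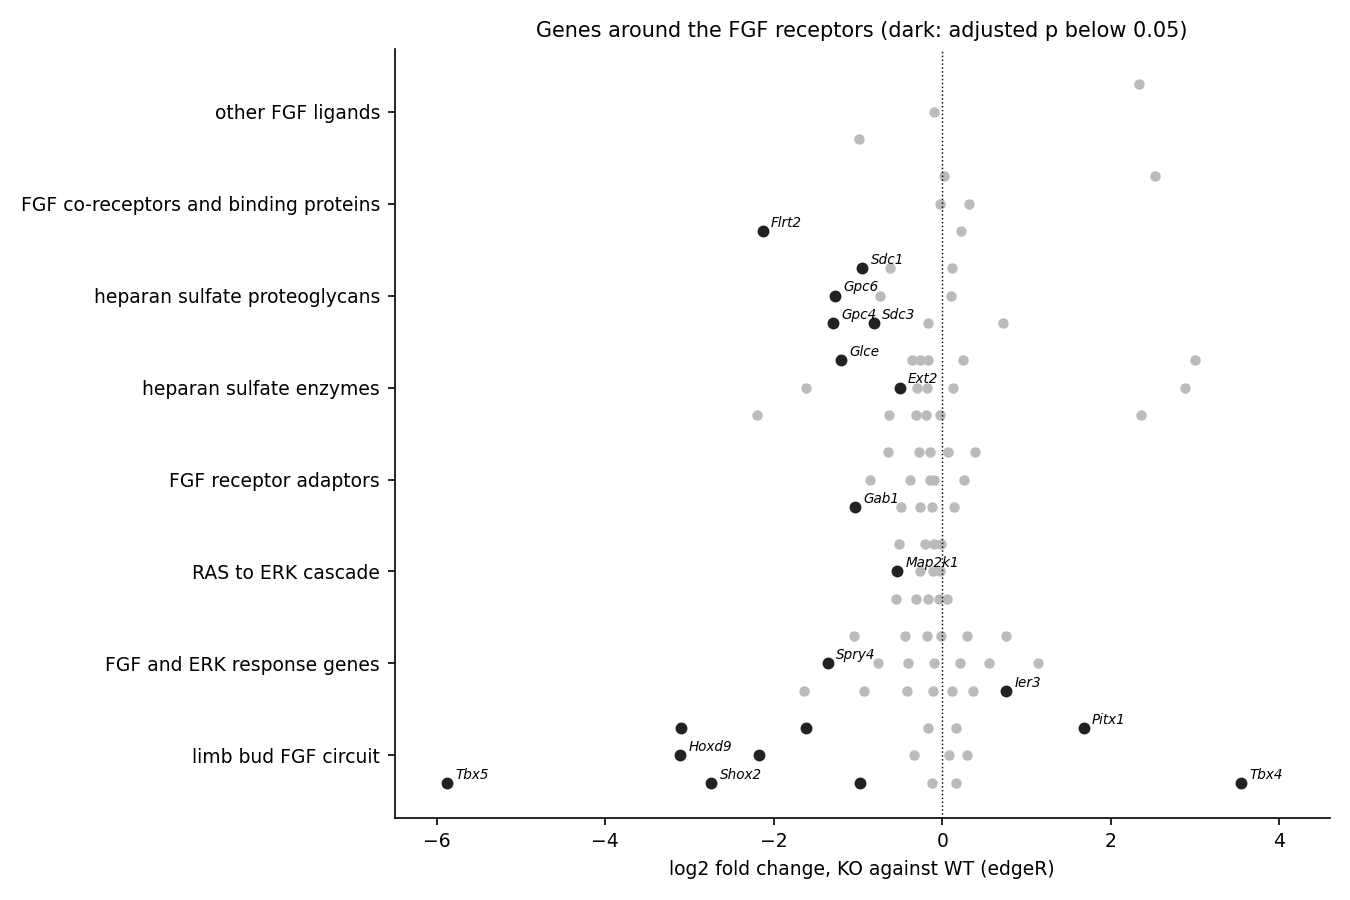
Log2 fold change of KO against WT (x axis) for the tested genes of 8 lists around the FGF receptors (rows, with a vertical offset only to part the points). Dark points had an adjusted p below 0.05, and Fgf13 and Hoxc10, which had 0 counts in all WT libraries, are not drawn. Most points of the adaptor and cascade rows lie near 0, while the limb bud row runs from Tbx5 at -5.88 to Tbx4 at 3.55.

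For each called member the genes with the most similar log2 CPM over the 6 libraries were sought among the 10761 or 10762 other genes that averaged 5 CPM or more. For Fgfr1 they were Fam219b, Ext2 and Thbs3 (Pearson r of 0.9995, 0.9982 and 0.9976). For Fgfr2 they were Rnf111, Arih1 and Uaca (0.9988, 0.9987 and 0.9983), and for Fgf10 they were Dip2c, Rsrc1 and Rpap1 (0.9943, 0.9935 and 0.992). With 6 libraries in 2 groups such values are common, since 491, 384 and 252 genes exceeded 0.95 for Fgfr1, Fgfr2 and Fgf10. Rnf111, Arih1, Uaca and Fam219b all lie in the chromosome 9 stretch described above, where most genes were lower in KO. Dip2c and Rpap1 tracked Fgf10 in shape with much smaller differences, 42.6 against 32.5 and 67.3 against 53.8 CPM in WT and KO, which were not called (adjusted p = 0.0761 and 0.122).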

How the data were processed

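Deposited values were raw read counts per gene symbol, 1 file per library, which the authors made with Trim Galore 0.6.6 and HISAT2 2.2.1, per the submitters' processing notes. The notes name a human build although the symbols are mouse symbols, while for counting program, strand setting and annotation the entry is: not given in the sources used here. Positions and exon lengths came from GENCODE M21 (GRCm38), in which 92.9% of symbols were found by name, and sequences from RefSeq (GRCm38.p6).

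The test was edgeR's robust quasi-likelihood F test (edgeR 4.0.16, R 4.3.3) after filterByExpr and TMM scaling, with p-values adjusted by Benjamini-Hochberg across 15223 genes and called below 0.05. The SE is the log2 fold change divided by the square root of F. Adjusted p-values come from this test unless another tool is named. CPM use TMM-scaled library sizes, and correlations use log2 CPM with a prior count of 2. Counting intervals (95%, exact binomial on summed counts) and floors of 3 counts cover counting error only. The test was tried on simulated counts.

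Alternatives were DESeq2 1.42.0, limma-voom (limma 3.58.1), edgeR's exact test, other scaling factors and filters, a replicate block, fits lacking 1 library each, and WT 1 and KO 1 left out together. The members, gene lists and alternatives were chosen with earlier results of these data known. Named genes are the members, Ppme1, up to 4 called genes per list with a mean of at least 1 CPM by smallest adjusted p, and the 3 most similar genes of each called member. Any other gene named was picked with its values in view.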

Additional observations from a re-analysis of the deposited data

How the results depend on the processing

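With all 6 libraries edgeR called 1127 genes, 3 of the FGF members lower and 22 genes of the pathway lists. DESeq2 called 2406 genes and 37 list genes, and edgeR's exact test called 1735 genes. With 1 library left out the counts ran from 332 to 1216 genes, 1 to 3 members lower, 0 to 1 higher (Fgf7, without WT 1) and 10 to 24 list genes. Without WT 1 and KO 1 together 7408 genes, 60 list genes and 1 member higher (Fgf7) were called. All 15 list genes named by rule kept their call there, and 7 of them kept it in each fit with 1 library left out. They had been chosen by their call in these same data. The fit without WT 1 and KO 1 called 24.6% of all genes lower and 23.3% higher, so a call kept there is no separate support. The only sign among the tested members to turn was that of Fgfrl1 (-0.097 without WT 1 and KO 1). With longest transcripts the Fgfr1 share of the receptors was 72% in WT and 68% in KO, against 67.7% and 60.4%; the cause is the length alone.

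Libraries of the same replicate number did not deviate together: the correlations of their deviations from the group means were -0.73, -0.573 and -0.593 for numbers 1 to 3, so the numbers do not pair the samples and no library was most like its own number. Libraries of other numbers correlated at up to 0.633 (WT 3 with KO 1). With the replicate block edgeR called 8 genes, 0 members and 0 list genes (4 members lower, 30 list genes and 1847 genes in all at an unadjusted p under 0.05), and Ppme1 itself was at -2.245 (adjusted p = 0.0518). Depth limits Fgf5, Fgf18 and Fgf1, which stayed under 25 counts per library.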

Other observations

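In some heparan sulfate enzymes that did not pass, 1 library of a group stood far from the other 2. Sulf2, which removes sulfate groups from heparan sulfate outside the cell, had 734 counts in WT 1 and 4069 and 4104 in WT 2 and WT 3, against 941, 465 and 344 in KO (adjusted p = 0.0938). Hpse, the enzyme that cuts the chains, had 10, 101 and 79 counts in WT and 728, 293 and 248 in KO (adjusted p = 0.0767). Hs3st1, a sulfotransferase, had 41, 77 and 69 counts in WT and 601, 137 and 150 in KO (adjusted p = 0.0797), so KO 1 was the highest library for Hpse and Hs3st1. In the growth genes Ccnd1, Myc and Fosl1, as in Fgf7, WT 1 was above WT 2 and WT 3, and KO 1 was below KO 2 and KO 3. Ccnd1, a cyclin that drives entry into the cell cycle, had 10250, 4051 and 4128 counts in WT and 2943, 10411 and 8837 in KO (adjusted p = 0.828). These genes were chosen after their values were seen.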
